A study of Mus musculus with 4 samples.

Results

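The 773 wide open regions of embryonic mouse limb described here were stretches of accessible chromatin at least 2000 bp wide that were found in each of 4 ATAC-seq peak lists. In ATAC-seq, a transposase inserts sequencing adapters into accessible DNA, and the places where insertions pile up are called as peaks with a summit. The members were chosen from the peak summits themselves. Each summit was extended by 250 bp on both sides, the summits of all lists were pooled, overlapping intervals were merged, and regions held by all 4 lists and at least 2000 bp wide were kept. Of 74669 merged regions, 23894 were held by all 4 lists, and the 773 wide ones were 3.24% of those. A further 12 regions of that width were held by 3 lists and 3 by 2 lists. Because width and presence in every list chose the members, both are given as a description and carry no test.

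The libraries came from forelimbs and hindlimbs combined, dissected at E11.5 (embryonic day) from embryos of the c57bl6.J X 129S6.sv background. The cells were dispersed with trypsin and fixed before transposition. Embryos with a stop cassette insertion gave 2 libraries and wild-type embryos gave the other 2. The insertion site and the number of embryos behind a library are not given in the labels, so the spread between replicates may be technical. The series concerns the long non-coding RNA locus Maenli and the limb gene engrailed-1 (En1), which sets ventral identity in the limb ectoderm. As the limb is a mixture, a weak or missing region can mean fewer cells of a type or less accessibility per cell, and these cannot be told apart.

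The peak lists differed in length, from 51701 summits in wild-type replicate 1 to 107827 in stop cassette replicate 2, with 68471 in wild-type replicate 2 and 79083 in stop cassette replicate 1. They give no read counts, so sequencing depth is unknown. Among markers of the tissue, 7 of 12 limb mesenchyme genes had a region held by all 4 lists at a transcript start, as had 4 of 8 surface ectoderm genes. The count was 1 of 6 for endothelium, 3 of 5 for blood, 3 of 6 for neurons, and 0 of 6 each for muscle precursors and liver. Over all protein-coding genes it was 13016 of 22380 (58.2%), about the share of limb mesenchyme genes (58.3%). The marker counts therefore do not identify the tissue.

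Open chromatin at a promoter is usually a short nucleosome-depleted stretch just before the transcript start, flanked by positioned nucleosomes. Many vertebrate promoters lie in CpG islands, where the dinucleotide CG has escaped the loss that methylation brings about elsewhere, and such promoters tend to be open in most cells. Developmental regulators, the transcription factors and signals that pattern the embryo, often sit in broad CpG-rich domains that Polycomb proteins can silence. Housekeeping genes, needed in every cell, have constitutively open promoters. The wide regions therefore raise the question of which of these kinds of gene they mark.

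To show what the members look like, 300 bases around the strongest summit whose window has no annotated exon are printed for 4 of them (NCBIM37, which is mm9, plus strand, CG dinucleotides in capitals). They are the widest region at a homeobox gene, the widest at a coding start, the widest at a housekeeping gene, and the second-widest region more than 10 kb from any start that also has no RefSeq start.
Prrx1, 881 bp upstream of its nearest annotated start, intergenic, chr1:165244573-165244872: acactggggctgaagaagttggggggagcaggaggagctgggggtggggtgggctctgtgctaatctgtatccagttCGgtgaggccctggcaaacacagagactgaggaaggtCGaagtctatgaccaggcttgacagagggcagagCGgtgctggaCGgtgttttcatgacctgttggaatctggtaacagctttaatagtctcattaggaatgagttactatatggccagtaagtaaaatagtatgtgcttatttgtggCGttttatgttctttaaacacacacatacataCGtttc
Basp1, 608 bp downstream of its start, in an intron, chr15:25342762-25343061: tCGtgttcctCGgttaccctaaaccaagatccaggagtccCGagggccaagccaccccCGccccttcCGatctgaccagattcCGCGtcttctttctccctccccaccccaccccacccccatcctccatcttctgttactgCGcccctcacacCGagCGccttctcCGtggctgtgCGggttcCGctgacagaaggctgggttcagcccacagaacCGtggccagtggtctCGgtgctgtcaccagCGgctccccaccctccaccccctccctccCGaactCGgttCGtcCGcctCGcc
U2af2, 478 bp upstream of its start, intergenic, chr7:5013118-5013417: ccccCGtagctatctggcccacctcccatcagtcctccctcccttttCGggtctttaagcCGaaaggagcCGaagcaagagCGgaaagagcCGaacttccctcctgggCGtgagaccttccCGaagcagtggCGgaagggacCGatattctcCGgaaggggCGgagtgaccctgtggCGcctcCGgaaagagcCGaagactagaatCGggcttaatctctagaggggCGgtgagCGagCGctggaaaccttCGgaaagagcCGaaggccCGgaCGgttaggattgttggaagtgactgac
Hcrtr2 intron, 23121 bp upstream of the nearest start, that of Gfral, chr9:76084436-76084735: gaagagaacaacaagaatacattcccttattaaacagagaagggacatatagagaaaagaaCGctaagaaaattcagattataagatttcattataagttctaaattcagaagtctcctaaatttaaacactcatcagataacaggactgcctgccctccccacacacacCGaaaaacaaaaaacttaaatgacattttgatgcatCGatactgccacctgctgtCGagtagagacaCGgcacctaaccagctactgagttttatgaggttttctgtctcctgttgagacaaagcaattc
The U2af2 window held 23 CG dinucleotides and the Basp1 window 21. The Prrx1 window held 6 and the Hcrtr2 intron window 5. The first pair was GC-rich, at 60% and 65.3%, against 48% and 38% in the other two.

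Most members were only slightly wider than the threshold. Their widths ran from 2000 to 4393 bp with a median of 2172 bp, and 260 of them (33.6%) were narrower than 2100 bp. A width of 2500 to under 3000 bp was reached by 84 regions, and 15 reached 3000 bp or more. The other regions held by all 4 lists had a median width of 1051 bp. The wide regions together covered 1.74 Mb, against 24.99 Mb for the rest. No break set them apart at the threshold, as 349 regions lay between 1900 and 1999 bp and 260 between 2000 and 2099 bp. The narrowest members, at 2000 bp each, included regions at Daam1 and Itm2a and 3 with no start within 1 kb. The widest regions just outside, at 1999 bp each, were those of Cebpd, Ap4m1 with Mcm7, Hnrnpu, Tank and Atp2a2.

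**Figure D1:**
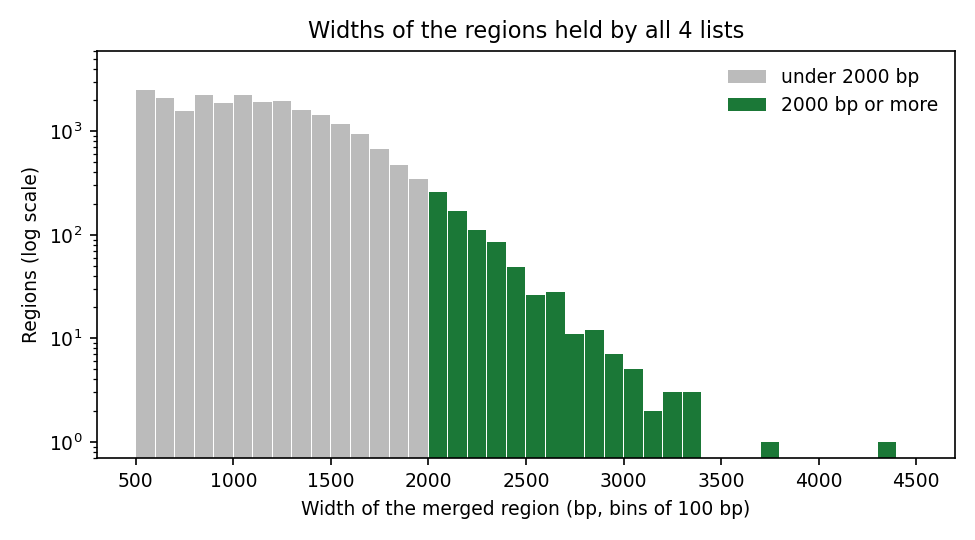
Number of regions held by all 4 lists (vertical axis, log scale) against width of the merged region in bins of 100 bp; the green bars are the 773 regions of 2000 bp or more. The counts fall smoothly through the threshold, from 349 regions just below it to 260 just above it, and thin out to single regions beyond 3500 bp.

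The widest region of all measured 4393 bp and held no annotated gene. It lay on chromosome 17 from 39979911 to 39984303, and its midpoint was 3665 bp from the nearest start, that of AY036118. It held 12 and 13 summits of the stop cassette lists and 12 and 9 of the wild-type lists. Its best summits ranked only at the 67.8, 67.2, 74.4 and 72.0 percentiles of their lists, in the same order. From general knowledge, other mm9 annotations place the precursor ribosomal RNA gene Rn45s here, a gene that the genome carries in many copies, of which assemblies hold few. Of the 31-base words sampled along it, 15.5% occurred elsewhere in the assembly. Another of the 3 widest, of 3393 bp, lay on unplaced sequence of chromosome 9, which has no annotation here. Leaving out both changed the number of wide regions to 771 and no count of genes.

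Among regions with an annotated start, that of Basp1, a growth cone membrane protein, was the widest at 3715 bp (chromosome 15, 25341277 to 25344991). It held 4 and 13 summits in the stop cassette lists and 5 and 7 in the wild-type lists, the largest number in stop cassette replicate 2. The longest uninterrupted stretch in that list alone was 3703 bp, against 989, 685 and 1500 bp in stop cassette replicate 1 and wild-type replicates 1 and 2. Nipbl, which encodes the cohesin loader, had a region of 3381 bp (chromosome 15, 8393477 to 8396857) with 8, 7, 3 and 5 summits in the same order of lists, stop cassette before wild type. Here the longest single stretch was in stop cassette replicate 1, at 2769 bp. Gtf2a1, which encodes a subunit of the general transcription factor TFIIA, had a region of 3232 bp (chromosome 12, 92826394 to 92829625) that stop cassette replicate 1 spanned alone. The other 3 lists reached 1224, 996 and 1187 bp there.

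At Cpeb2, an RNA-binding regulator of translation, the region measured 3280 bp (chromosome 5, 43623542 to 43626821). The 4 lists held similar numbers of summits there, 7, 6, 5 and 6, but not along the whole region. On the side of higher coordinates, the last wild-type summit lay 220 bp from the midpoint. Beyond it, out to 1390 bp, all summits came from the stop cassette lists. The longest single stretch at Cpeb2 was in wild-type replicate 2, at 2063 bp. The region of Zmym2, a zinc finger protein, was 3244 bp wide (chromosome 14, 57503986 to 57507229), and both stop cassette lists alone kept more than the threshold there, at 2626 and 2038 bp. The wild-type lists reached 965 and 992 bp at Zmym2. A region of 3108 bp held starts of both Mbd6, a methyl-CpG-binding domain protein, and Ddit3, the stress-induced factor CHOP, with 9 annotated starts in all (chromosome 10, 126725434 to 126728541). None of the lists alone reached 2000 bp without a gap at Mbd6 and Ddit3. Cdk6, a kinase of the early cell cycle, had 3101 bp (chromosome 5, 3341735 to 3344835) with 4, 10, 3 and 6 summits. The largest number was again in stop cassette replicate 2. Its best summit ranked at the 40.8 percentile in stop cassette replicate 1 and at the 84.9, 84.3 and 71.7 percentiles in the other lists.

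**Figure D2:**
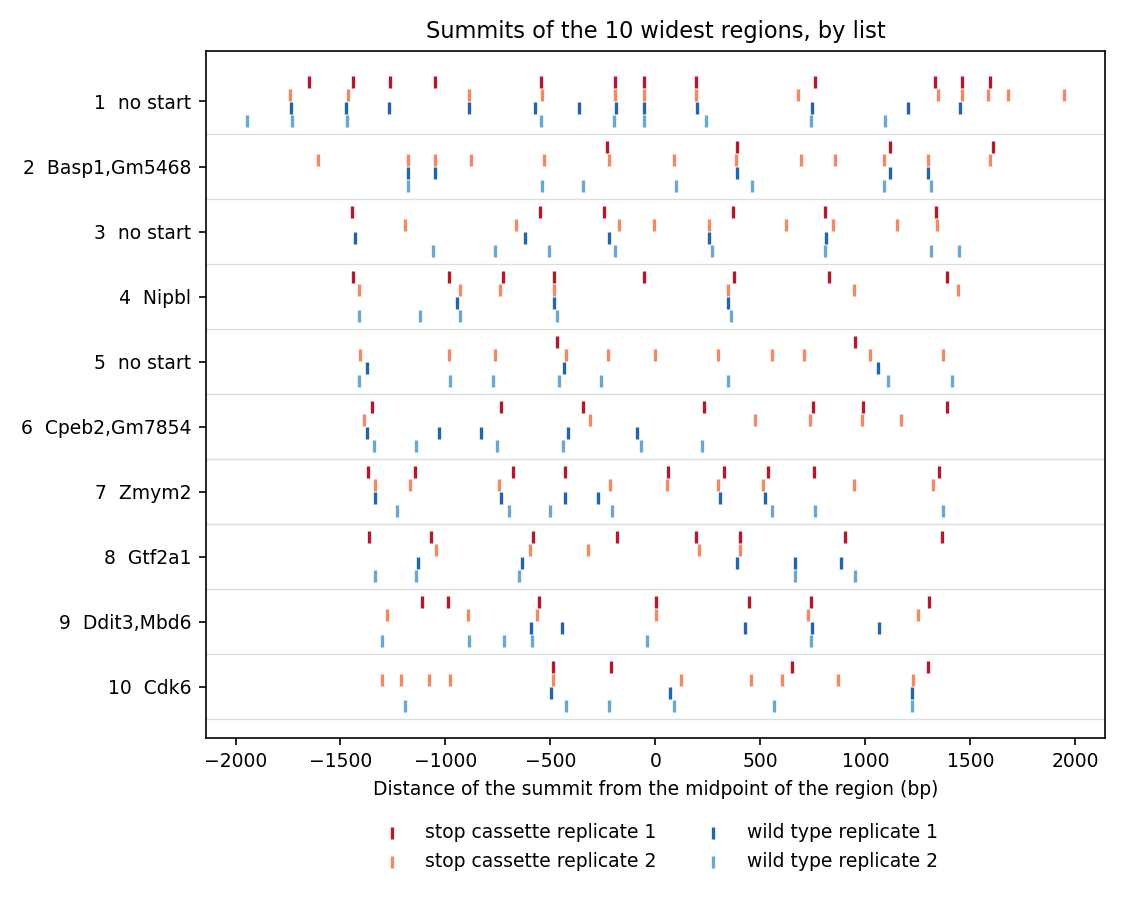
Positions of the summits of each list (ticks, coloured by list) relative to the midpoint of the region (bp) in the 10 widest regions, ordered by width from the top. The regions are made of many separate summits, several of which recur at nearly the same place in different lists, while others, as at Basp1, come from stop cassette replicate 2 alone.

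A wide region was made of 18 summits at the median (range 8 to 46), against 8 in the other regions held by all 4 lists. The stop cassette lists placed a median of 5 summits each in a wide region. Wild-type replicate 1 placed 3 and replicate 2 placed 4. Neighbouring summits of the same list inside a wide region were a median of 313 to 337 bp apart across the 4 lists. Summits of different lists fell close together. The median distance from a summit to the nearest summit of another list was 11 to 14 bp, and 73.7% to 81.5% of the summits had one within 50 bp. In these lists a wide region was a row of separate summits, most of which recurred within 50 bp in another library.

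The threshold of 2000 bp was met mainly by pooling. In 514 members (66.5%) none of the lists alone reached that width without a gap, in 207 (26.8%) a single list did, and in 2 regions all 4 lists did. Those 2 were the region of Atp6v1a and Naa50, at 2723 bp, and a region of 2392 bp near an annotated U6 RNA; they were singled out after their values were seen. Stop cassette replicate 2 alone kept 151 members at 2000 bp or more and stop cassette replicate 1 kept 114, against 17 and 39 in wild-type replicates 1 and 2. The number of members depended on the 2 longest lists in particular. It was 438 without stop cassette replicate 2 and 494 without stop cassette replicate 1, when presence in the remaining 3 lists was required. With every list reduced to its 51701 strongest summits, 232 wide regions remained, each overlapping one of the 773.

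Strong summits sat beside weaker ones. The best summit of a member had a median rank at percentile 89.1 in stop cassette replicate 1, 92.4 in replicate 2, 85.9 in wild-type replicate 1 and 88.8 in replicate 2. In the other regions held by all 4 lists it was 79.5, 86.8, 68.6 and 78.0, in the same order. The best of more summits ranks higher by number alone, and that part was not separated. Over all summits inside the members, the median ranks were only 58.8, 60.8, 56.03 and 56.2, close to or below those in the other regions held by all 4 lists (60.3, 69.1, 55.8 and 60.9). The percentiles rank the authors' score within each list.

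Wide regions lay mostly at transcript starts. Of the 772 on assembled chromosomes, 700 (90.7%; 95% Wilson interval 88.4% to 92.5%, counting error only) held at least 1 start of the GENCODE M1 annotation. Among the other regions held by all 4 lists the share was 51.3%, or 11837 of 23092. A wider interval meets a start more easily, so the midpoint was also used. A start lay within 1 kb of the midpoint in 89.8% of the wide regions and 53.6% of the others. Starts of protein-coding genes were held by 688 wide regions. Starts of 2 or more genes were held by 213 wide regions (27.6%) and by 8.14% of the others, and starts on both strands by 25.5% and 7.46%, without the correction for width that the midpoint gives.

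The regions with the most genes were a histone cluster and crowded promoters. On chromosome 3, a region of 2659 bp (96023047 to 96025705) held starts of the replication histone genes Hist2h2ab, Hist2h2ac and Hist2h2be and of Gm15444. Its summits numbered 8 in each stop cassette list and 2 and 5 in the wild-type lists. Mbd6 and Ddit3, described above, shared theirs with 2 further annotated transcripts. Ewsr1, an RNA-binding protein, shared a region of 2632 bp on chromosome 11 (4998124 to 5000755) with Rhbdd3 and Gm11031, with 8, 7, 6 and 5 summits. Wide regions were scattered along the chromosomes. The gap to the nearest other wide region had a median of 865152 bp, and 4 regions had a neighbour within 10 kb, at Hist1h2ab with Hist1h3b, at Hist1h1a with Hist1h3a and Hist1h4a, and a pair at Bad. Chromosome 10 had 62 wide regions, 4.95% of its regions held by all 4 lists, and chromosome 19 had 14, or 2.23%, the ends of the range.

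Around the most upstream start, wide regions had somewhat fewer summits at the core than narrower ones, in each of the 4 lists, and more on the flanks; this was not tested. For this view, 503 wide regions and 10115 others were used in which all starts lay on 1 strand, and positions were measured from the most upstream start. Where a region holds several starts, this can put the summits of a later start outside the core and lower the core count. Of all regions holding a start, 205 of 700 wide ones and 4353 of 11837 others held only 1. The part of this in the lower core count was not measured. Between 200 and 100 bp before the start, every list placed more summits in wide regions, at 21.1 to 26.2 per 100 regions against 16.4 to 19.02. In the 100 bp before the start, the lists placed 34.0 to 39.4 summits per 100 wide regions, against 39.1 to 40.7 in the other regions. In the 100 bp after it they placed 24.9 to 28.4, against 31.5 to 33.0. In both sets the count dipped between 100 and 200 bp after the start, to 14.9 to 16.1 and 11.9 to 13.1 summits per 100 regions. It rose again between 200 and 300 bp, to 24.1 to 27.6 and 26.3 to 32.01. Farther out the sets parted, as the choice by width requires. Between 500 and 1500 bp downstream, wide regions had 162, 174, 91.1 and 121 summits per 100 regions in stop cassette replicates 1 and 2 and wild-type replicates 1 and 2, and the others had 43.3, 49.0, 24.8 and 31.5. The same distances upstream gave 75.1, 80.5, 47.3 and 55.3 against 12.1, 12.9, 6.53 and 8.40.

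The lean of the regions into the gene was similar in both sets, which was not tested. Measuring from the most upstream start puts any further start downstream and so adds to the lean, by an amount not measured. Wide regions reached a median of 864 bp upstream and 1352 bp downstream of the start, and 61.2% of their width lay downstream at the median. For the other regions the figures were 434 bp, 731 bp and 61.3%. The downstream part was the longer one in 360 of the 503 wide regions (71.6%) and in 72.7% of the others.

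**Figure D3:**
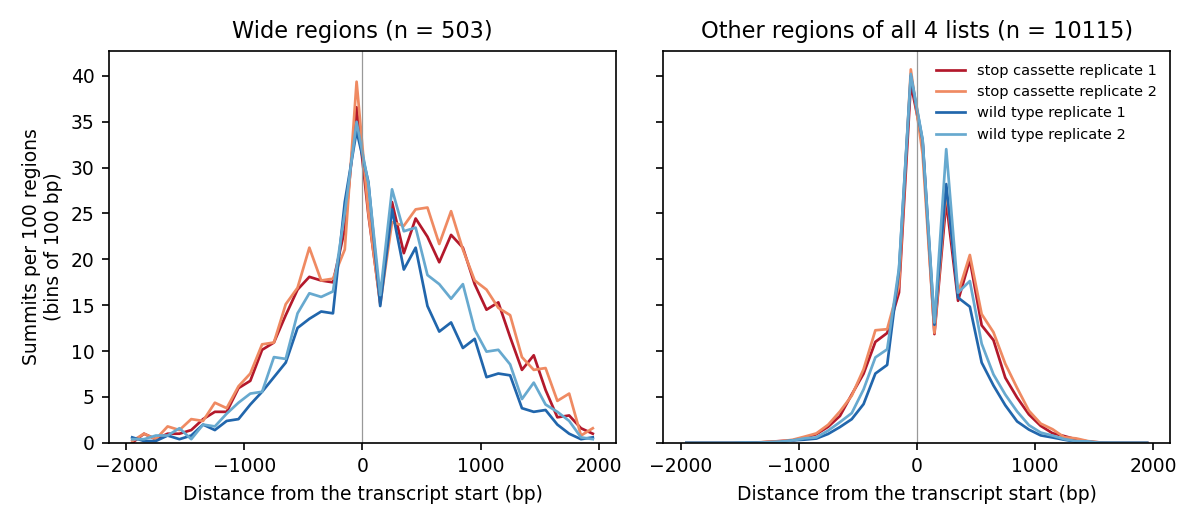
Summits per 100 regions in bins of 100 bp (vertical axis) against distance from the transcript start (bp, negative upstream), one line per list, for 503 wide regions (left) and 10115 other regions held by all 4 lists (right). Both panels peak in the 100 bp before the start and dip at 100 to 200 bp after it. The wide regions carry long shoulders on both sides. In both panels the flanks are higher in the stop cassette lists, which are also the longer lists.

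Base composition, which the choice of members did not use, differed from that of the other regions. In a window of 2000 bp around the midpoint, the median GC content was 61.8% in wide regions and 50.7% in the others. This window lies within every wide region and reaches beyond every other region, whose median width was 1051 bp. The contrasts therefore also set open sequence against flanks, and that part was not separated. The ratio of observed to expected CG dinucleotides, about 1 where CG is as frequent as its bases predict, had medians of 0.757 and 0.432. Comparing only regions that held a start, the ratio was 0.768 (quartiles 0.666 and 0.854) in 700 wide regions and 0.611 (0.490 and 0.723) in 11837 others. A ratio of 0.6 or more was found in 85.7% and 52.6% of these. Among regions without a start inside, 28 of 72 wide regions (38.9%) and 5.63% of the others reached it. The printed U2af2 and Basp1 windows are of the CG-rich kind, and the Prrx1 and Hcrtr2 intron windows hold few CG dinucleotides. Sequence present elsewhere in the assembly was uncommon. Only 27 wide regions had 10% or more of their 31-base words repeated, or 3.497%, against 6.30% of the others.

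**Figure D4:**
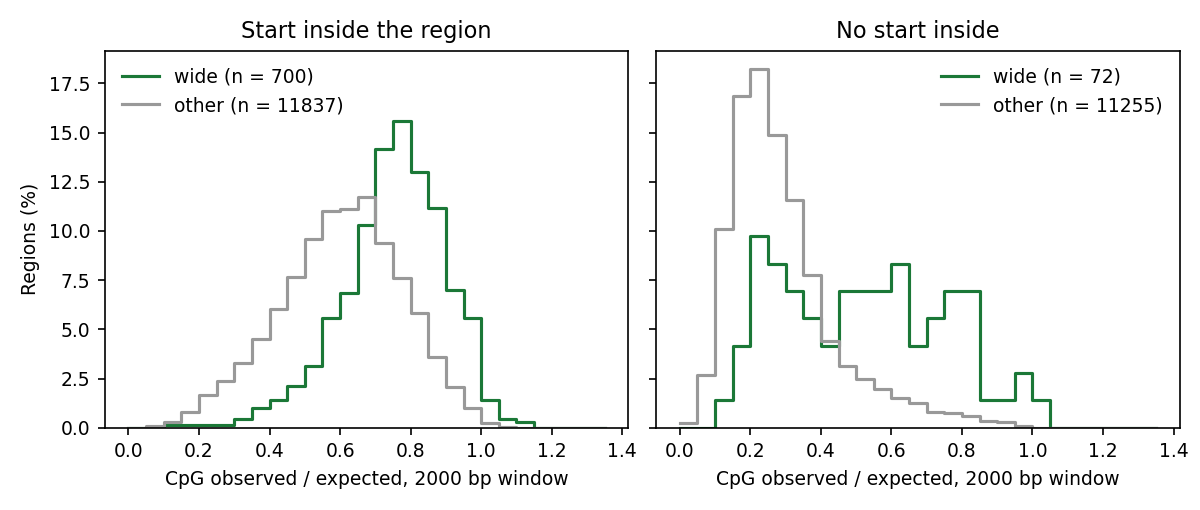
Share of regions (%, vertical axis) by ratio of observed to expected CG dinucleotides in a 2000 bp window (bins of 0.05), for regions with a start inside (left) and without one (right); green is wide, grey is other. With a start inside, the wide regions peak at a higher ratio than the others, and without one they spread over both low and high ratios while the others stay low.

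Short motifs were counted too. In the 2000 bp windows of regions holding a start, both strands searched, the GC box GGGCGG occurred in 98.3% of the wide and 90.8% of the other regions, with a mean of 7.59 and 4.06 matches. The CCAAT box (CCAAT) occurred in 83.3% and 89.9%. The ETS core CGGAAG was in 71.0% and 63.3%, the NRF1 core GCATGCG in 15.4% and 15.4%, the YY1 core ATGGCGG in 32.4% and 23.6%, and the E-box CACGTG in 39.0% and 33.2%. Motifs rich in A and T were rarer in wide regions. TATAAA was in 31.4% and 51.1%, and TAATTA, a homeodomain core, in 13.7% and 27.3%. A match is a string of letters and not a bound site. The windows reach beyond the other regions, so these contrasts carry the same limit as base composition.

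Wide regions marked 829 of 22380 protein-coding genes (3.70%) by a start inside or within 1 kb. Of the 13016 protein-coding genes that had any region held by all 4 lists at a start, the share was 6.37%. They also touched starts of 58 lincRNA, 12 microRNA and 11 pseudogene entries.

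Of 429 genes in 12 families of patterning factors and signals, 8 (1.86%; 95% Wilson interval 0.948% to 3.64%) had a wide region, below the 3.70% of all protein-coding genes. Fewer of them had any region held by all 4 lists at a start, 223 of 429 (52.0%) against 58.2%; such genes are called open here. Among the open ones, 3.59% had a wide region, against 6.37% of all open protein-coding genes. The widest region of an open developmental regulator had a median of 1234 bp, against 1327 bp for all open protein-coding genes.

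Housekeeping genes were open almost without exception but seldom in wide regions. Of 458 genes in 9 families, 444 (96.9%) had a region held by all 4 lists and 18 (3.93%; 2.50% to 6.13%) had a wide one, close to the 3.70% of all genes. As a share of the open genes this was 4.05%, against 6.37%. In neither group was the share among open genes above that of all open protein-coding genes. At a width of 1500 bp or more the order was the same, as 27.8% of the open developmental regulators, 29.5% of the open housekeeping genes and 33.4% of all open protein-coding genes had such a region. At 2500 bp or more it was not: 0.448% of the open developmental regulators (1 gene), 1.13% of the open housekeeping genes (5 genes) and 0.868% of all open protein-coding genes had one. No test of these shares was made. Without stop cassette replicate 1, 5 developmental regulators and 9 housekeeping genes had a wide region, or 2.12% and 2.03% of the open ones, so that their order turned, against 4.06% of all open protein-coding genes. Without stop cassette replicate 2, the counts were 5 and 11, or 2.27% and 2.48%, against 3.75%.

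The homeobox class supplied 3 of the 8 developmental genes, out of 136 outside the Hox clusters. Prrx1, a limb mesenchyme factor (ENSMUSG00000026586.8), had a region of 2077 bp (chromosome 1, 165243402 to 165245478) with 5, 6, 2 and 4 summits. Its best summits ranked at the 58.8, 63.2, 20.9 and 64.6 percentiles, low among the members, and lowest in wild-type replicate 1. Meis1, a proximal limb factor (ENSMUSG00000020160.10), had 2076 bp (chromosome 11, 18918739 to 18920814) with 3, 4, 3 and 4 summits. Six4, expressed in muscle precursors (ENSMUSG00000034460.6), had 2032 bp (chromosome 12, 74212731 to 74214762) with 6, 5, 5 and 5 summits. All 3 lay close to the threshold.

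Signalling genes supplied 4 more. The fibroblast growth factors and receptors gave 3 of 27 (11.1%; 3.85% to 28.1%), or 14.3% of the open ones, above the 3.70% and 6.37% of all protein-coding genes and as high as the leading housekeeping classes. Fgf13, an intracellular member of its family, had 2 wide regions on chromosome X at different starts, of 2624 bp (56819061 to 56821684) and 2173 bp (56386520 to 56388692). The wider of the 2 held 3, 8, 2 and 5 summits and the other 6, 5, 5 and 4. Fgf18, a ligand of bone and cartilage growth, had 2229 bp with 4, 4, 5 and 5 summits (chromosome 11, 33046633 to 33048861). Fgfr2, a receptor needed for limb outgrowth, was assigned 2027 bp (chromosome 7, 140314671 to 140316697), where the annotation also puts a start of Ctbp2. Which of these genes the region serves was not tested. Fgfr2 counts among the 3 of its class, and among the 8, by an annotated start alone. Grem1, the BMP antagonist that keeps the limb bud's signalling loop going (ENSMUSG00000074934.3), had 2182 bp (chromosome 2, 113597306 to 113599487). Its summits numbered 5, 8, 6 and 5, and stop cassette replicate 2 spanned the region alone. Foxo1, a forkhead factor of insulin signalling, completed the 8 with 2097 bp and 5, 4, 4 and 4 summits (chromosome 3, 52071090 to 52073186).

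Several limb regulators fell short by a small margin. The widest regions at Sox9, Gli3, Hand2 and Fgf10 measured 1966, 1942, 1928 and 1928 bp. These 4 were singled out after their values were seen. Others were far narrower or had no region held by all 4 lists at a start. Hoxa13 had 1013 bp, Hoxd13 870 bp and Msx1 608 bp, while Shh, Bmp4, Tbx5, Lmx1b and En1 had none.

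The Hox clusters, whose genes set position along the limb, held no wide region. Over the 4 clusters, 0 of 40 annotated genes had one (Wilson upper bound 8.76%). Between the outermost starts of the HoxA cluster lay 4 regions held by all 4 lists, with a widest of 1312 bp. The HoxC cluster had 3, up to 1748 bp, and the HoxD cluster 6, up to 1767 bp, the latter at Hoxd11. The HoxB cluster had none. Within 500 kb of the En1 start, 15 regions were held by all 4 lists, up to 1368 bp wide. The T-box (0 of 16), Sox (0 of 20), Gli, Glis and Zic (0 of 12), bHLH (0 of 56), Gata (0 of 6), Wnt and Frizzled (0 of 29) and Hedgehog and Notch (0 of 15) classes had no wide region either.

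**Figure D5:**
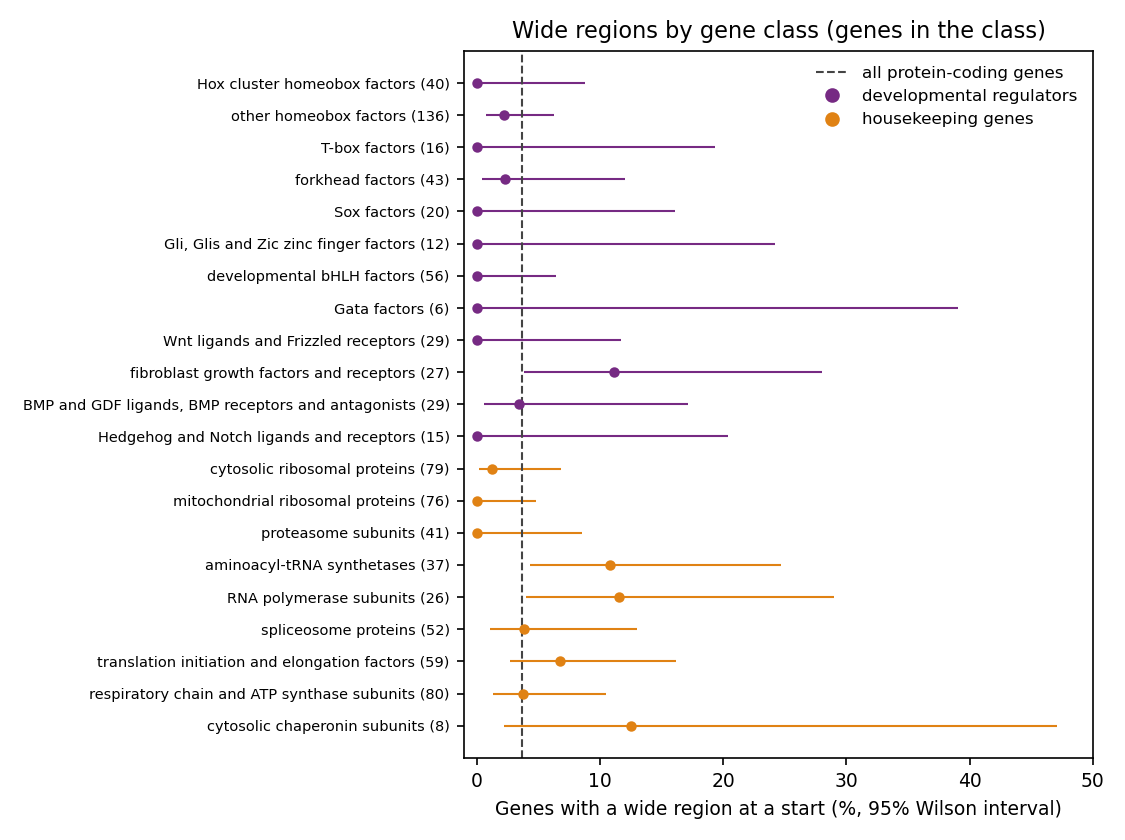
Share of the genes of each class with a wide region at a start (%, points) with 95% Wilson intervals (lines, counting error only); purple classes are developmental regulators, orange ones housekeeping, and the dashed line is the 3.70% of all protein-coding genes. Most developmental classes sit at 0, and the intervals of most classes span the line.

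Housekeeping classes were uneven. The chaperonin subunits had 1 of 8 genes with a wide region, the RNA polymerase subunits 3 of 26 (95% Wilson upper bound 29.0%), the aminoacyl-tRNA synthetases 4 of 37 (10.8%; 4.29% to 24.7%) and the translation factors 4 of 59. The ribosomal proteins of the cytosol had 1 of 79, and those of the mitochondrion (0 of 76) and the proteasome subunits (0 of 41) had none. The widest region of the group was that of U2af2, a splicing factor (ENSMUSG00000030435.8), at 2976 bp (chromosome 7, 5011632 to 5014607). Its lists held 6, 7, 5 and 7 summits, with best ranks at the 88.7, 93.5, 84.4 and 83.8 percentiles.

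Several of these regions were shared with a neighbouring gene. Rpl7, a protein of the large ribosomal subunit, shared 2586 bp with the retinol dehydrogenase gene Rdh10 (chromosome 1, 16093997 to 16096582), with 6 summits in every list. Polr3g, a subunit of RNA polymerase III, shared 2555 bp with Mblac2 (chromosome 13, 81849059 to 81851613), with 4, 4, 2 and 5 summits and best ranks of 98.2, 94.99, 98.7 and 97.5. Uqcrh of the respiratory chain shared 2550 bp with Lrrc41 (chromosome 4, 115747402 to 115749951), Kars, the lysyl-tRNA synthetase, 2225 bp with Terf2ip (chromosome 8, 114534319 to 114536543), and Cct5, a chaperonin subunit, 2168 bp with Fam173b (chromosome 15, 31530452 to 31532619). Eif4e, the cap-binding translation factor, shared 2565 bp (chromosome 3, 138188723 to 138191287) with the microRNA gene Mir1956, with 7, 4, 5 and 5 summits.

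Genes also differed in their number of annotated starts. Of protein-coding genes with 1 annotated start, 2.33% had a wide region, and of those with 6 or more, 6.35%, while the share that was open rose from 37.4% to 89.5%. Among open genes the share with a wide region had no steady trend, at 6.24%, 6.84%, 5.79%, 5.11%, 5.77% and 7.09% for 1, 2, 3, 4, 5 and 6 or more starts. Within open genes of 4 or more starts, it was 6.45% for developmental regulators, 5.10% for housekeeping genes and 6.44% for all. Within open genes of 1 start it was 2.11%, 2.36% and 6.24%. The part of the number of starts in the comparison of classes was not tested further.

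A start within 1 kb was missing at 63 wide regions on assembled chromosomes. Of these, 20 overlapped an annotated gene and 43 did not, 44 were more than 10 kb from any start and 5 more than 100 kb. In 11 of them, 60 letters spanning a RefSeq transcript start (GRCm38.p6 sequences, matched by letters and not by position) were found. The widest of these matched the start of Fat3, a giant cadherin of tissue polarity. That region measured 3326 bp (chromosome 9, 16303882 to 16307207), 122863 bp from the nearest start of the annotation, also Fat3. It held 2, 11, 3 and 8 summits, most in both replicate 2 lists.

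Away from any known start, the next regions beyond 10 kb were on chromosome 18 (36047118 to 36049861, 2744 bp), 59017 bp from the nearest start, that of Cxxc5, and the one within Hcrtr2 whose intronic window is printed above. The first held 4, 9, 2 and 5 summits and had a CG ratio of 0.741. The Hcrtr2 region measured 2673 bp (chromosome 9, 76083575 to 76086247) and held 7, 7, 4 and 5 summits, with a GC content of 40.1%, far below the median of the members. Coding exon covered 8.27% of it. A region of 2367 bp lay 5139 bp from the nearest start, that of Sox4, a factor of progenitor cells (chromosome 13, 29049538 to 29051904, 3, 5, 4 and 6 summits); it was singled out after its values were seen.

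The comparison of genotypes asked whether wide regions were built differently when the cassette was present. It cannot decide this, because the summits compared also built the width that chose the members. More members reached 2000 bp in a stop cassette list alone (114 and 151) than in a wild-type list alone (17 and 39). The differences and p-values for the members are therefore given as a description. The mean number of summits per wide region was 4.86 and 5.17 in stop cassette replicates 1 and 2 and 3.57 and 4.24 in wild-type replicates 1 and 2. The group means, 5.02 ± 0.216 and 3.91 ± 0.476 (SD, n = 2 each), differed by 1.11 and the libraries did not overlap (two-sided exact permutation p = 0.333, the smallest that 2 against 2 libraries allow). The stop cassette lists were also the longer ones. At equal list length the values were 4.42, 3.69, 4.39 and 4.08, the groups overlapped, and the difference was -0.175 (exact permutation p = 1). As a share of its own list, wide regions took 4.75% and 3.71% of the stop cassette summits and 5.34% and 4.79% of the wild-type summits. That difference was -0.837 percentage points (exact permutation p = 0.333), and -0.0783 at equal list length (exact permutation p = 1). Leaving out stop cassette replicate 2 gave -0.160, and leaving out wild-type replicate 1 gave -0.449.

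Region by region, both stop cassette lists held more summits than either wild-type list in 262 of the 773 members (33.9%), where the share over all regions held by 4 lists was 15.0%. These summits also built the width that chose the members, so the shares are a description and no test of genotype. Both wild-type lists held more in 34 members (4.40%), against 4.64% over all regions. At equal list length, both stop cassette lists held more in 16 of the 232 wide regions (6.90%) and both wild-type lists in 34 (14.7%). Over all 19897 regions held by 4 lists at that length, the shares were 3.90% and 10.6%. Both shares were thus higher in wide regions, where each list places more summits. The part of summit number in this was not tested. The number of regions of 2000 bp or more that a list gave by itself was 116 and 157 for stop cassette and 17 and 39 for wild type (means 136.5 ± 29.0 and 28 ± 15.6, SD, n = 2 each, exact permutation p = 0.333). At equal length it was 27, 13, 17 and 9.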

How the data were processed

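ATAC-seq peak lists of 4 mouse limb libraries were used, 1 list per library, as deposited. Per the submitters' processing notes, Bowtie2 2.2.6, Picard and the build mm9 were used. Per the peak names in the deposited lists, duplicate and mitochondrial reads were removed and a mapping quality of 30 applied. The peak caller, any shift of reads for the transposase and any control are not given in the sources used here. Each deposited row is a summit of 1 bp with a score read as −log10 of a q-value (lowest values 1.30 to 1.31), used only to rank summits within a list.

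Summits were extended by 250 bp, pooled and merged where they shared at least 1 bp (Python 3.11.15, pandas 2.3.3, numpy 2.4.6). Depth is unknown. Starts came from GENCODE M1 on NCBIM37, the same build, and sequence from that genome; 31-base words were sampled every 20 bp. Gene classes were symbol patterns over protein-coding genes; AP-2 symbols matched none, 1 blood marker was unmatched, and 10 symbols have 2 identifiers. Groups were compared by exact permutation tests (scipy 1.17.1). Merging was tested on simulated data. Members, lists and alternatives were chosen with earlier results of these data known. Named regions were the 10 widest, the widest of each class, the 3 widest beyond 10 kb from a start, the 3 with most genes, those next to the threshold, and any at Hox or En1. Printed windows avoid annotated exons, a change to the rule.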

Additional observations from a re-analysis of the deposited data

How the results depend on the processing

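The number of wide regions is set by the lists and the settings: 232 at equal list length, 108 with a stricter score threshold, 0 with an extension of 100 bp, 6358 with 500 bp, 4383 at a width of 1500 bp or more, 99 at 2500 bp or more, 15 at 3000 bp or more, and 438 to 675 without one library. Fewer or shorter intervals merge less by construction. The share holding a start was 95.2% at equal list length, 97.2% with the stricter threshold, 86.4% at 1500 bp, 85.7% at 3000 bp, and 88.9% to 93.4% without one library; no share exists with 100 bp, where no region is left. Developmental regulators with a wide region numbered 2, 0, 0, 62, 1 and 0 at equal length, the stricter threshold, 100 bp, 1500 bp, 2500 bp and 3000 bp, and 5 to 7 without one library. Housekeeping genes numbered 6, 4, 0, 131, 5 and 0 in the same order, and 9 to 18 without one library. At equal list length, the genotype differences in summits per wide region and in score percentile reversed, to -0.175 and -2.23 from 1.11 and 3.38. The cause was not tested. The difference in regions that a list gave by itself, 108.5, kept its sign but was 7 at equal list length and 13.5 with the stricter threshold. Every other alternative of a difference kept its sign, though not its size, and every other count of regions or genes stayed within 1.5 times the reported one. With the replicate number as a block, the difference of 1.11 summits had an exact permutation p = 0.5, the smallest possible with 2 pairs. The labels do not say whether libraries of the same replicate number were handled together. The correlation of their deviations was 0.0807 over 23894 regions, which cannot decide this. Chosen after seeing the data were the width of 2500 bp and the removal of the widest and the unplaced region.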

Other observations

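Gene families chosen after the values were seen, and so given as a description with no test, included some with larger shares of wide regions than all developmental or all housekeeping genes together. Of 142 histone- and chromatin-modifying genes, 22 (15.5%; 95% Wilson interval 10.5% to 22.3%, counting error only) had a wide region, against 3.70% of all protein-coding genes. Among them were Ing2, a reader of histone methylation, at 3074 bp, Nsd1, a histone methyltransferase, at 2991 bp, Arid1b, a subunit of the SWI/SNF remodeller, at 2855 bp, and Chd7, a chromatin remodeller, at 2632 bp. The hnRNP, SR and Rbm RNA-binding proteins had 13 of 61 (21.3%; 12.9% to 33.1%), with Hnrnpa2b1 at 2853 bp in the region it shares with Cbx3, and Hnrpdl at 2726 bp. The Zbtb zinc finger factors had 9 of 38 (23.7%; 13.0% to 39.2%), with Zbtb7a the widest at 2905 bp. Zbtb1 and Zbtb25 among them had the same width, 2032 bp, and may count the same region. The replication histone genes had 11 of 67, several in the same region, and the Klf and Sp factors 4 of 26. The cyclin-dependent kinases and cyclins had 5 of 42 (11.9%), below the chaperonin subunits among the housekeeping classes (1 of 8, 12.5%).

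Lower shares were found in 3 other families. The Zfp zinc finger genes had 16 of 344 (4.65%), counting Zfp664 under 2 identifiers. Zfp668 and Zfp646 had the same width, 2268 bp, and may count the same region. The solute carriers had 11 of 355 (3.10%). The olfactory receptors, closed in most tissues, had 0 of 1113, with 2 of them open at a start. The chromatin-modifying and RNA-binding families had a median of 5 annotated starts per gene, against 2 over all protein-coding genes, and the part of that difference in their shares was not tested. The Zbtb factors had a median of 2.5.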
